A study of Mus musculus with 3 samples.

Results

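The liver transcriptome of mice with diet-induced steatohepatitis was set against that of chow-fed mice, as 1 RNA sequencing library against 1. The control library came from the liver of untreated male C57BL/6J mice on normal chow. The NASH library (nonalcoholic steatohepatitis) came from untreated males of the same strain, whose western diet was given together with liquid fructose; the label names 24 weeks. The diets began at 10 weeks of age; the strain is also written C57BL/6 in the labels, the weeks of the control group are not stated, and neither is whether a library pools animals. Another library of the series, from mice that received thyroid hormone on the diet, was not used in this comparison. The genes described are those with at least 1 FPKM (the number of fragments on a gene divided by its length and by the fragments of the library) in either library, 11499 of the 35275 genes in the table. For each, the log2 ratio is log2(FPKM + 1) in NASH minus log2(FPKM + 1) in control, a scale that understates the change of low genes. Pairs of values below give NASH first.

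Hepatocytes, the parenchymal cells of the liver, secrete most plasma proteins and divide metabolic work along the lobule: cells near the portal tract make urea and glucose, and those near the central vein make glutamine and carry much of the cytochrome P450. Kupffer cells are the resident macrophages of the sinusoids, and stellate cells store vitamin A and, once activated, lay down collagen. In steatohepatitis, fat accumulates in hepatocytes together with inflammation, recruited macrophages and scar formation. The deposited data hold no histology, so the disease label is taken from the submitters.

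The libraries held 54576236 fragments on genes in control and 47009255 in NASH, with 10598 and 11324 genes at 1 FPKM or more. For a gene of 2 kb, a count of 0 allows up to 0.0275 FPKM in control and 0.0319 FPKM in NASH (3 counts). The spread between mice is unknown with a single library on each side, so differences have no replicate check and no p-value is given. Ranges in brackets are exact 95% counting intervals of a ratio of FPKM values; they cover counting error only. In whole-liver RNA, more cells of a type and more RNA per cell cannot be told apart.

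Higher genes outnumbered lower ones. On the log2(FPKM + 1) scale, 1208 genes (10.5% of those compared) were higher by 1.5-fold or more in NASH and 296 (2.57%) lower by as much, and the counting interval itself lay past 1.5-fold for 1105 and 248 of them. At 2-fold the counts were 383 (3.33%) and 89 (0.774%), at 4-fold 36 (0.313%) and 11 (0.0957%), at 8-fold 7 (0.0609%) and 4 (0.0348%), and at 16-fold 4 higher (0.0348%) and none lower. Within 1.5-fold lay 9995 genes, 86.9%. The median log2 ratio of all genes was 0.12, the middle of the distribution ran from −0.05 (25th percentile) to 0.32 (75th), and its ends from −0.39 (5th) to 0.85 (95th). This median depends on the scaling: trimmed-mean (TMM) scaling lowers every log2 ratio of FPKM by 0.18, and ratios of FPKM + 1 by less at low levels, so that the median became −0.03. Of the genes past 1.5-fold 80.3% were higher as deposited but 64.3% after TMM and 67.6% after median-of-ratios scaling. At 2-fold 81.1% were higher as deposited, 68.6% after TMM scaling. List medians below are as deposited and are to be read against the all-gene median of 0.12. Lists of scarce genes can hold members that passed the filter only through NASH, and these raise their counts and medians. "Higher" and "lower" in counts mean past 1.5-fold on the log2(FPKM + 1) scale.

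**Figure D1:**
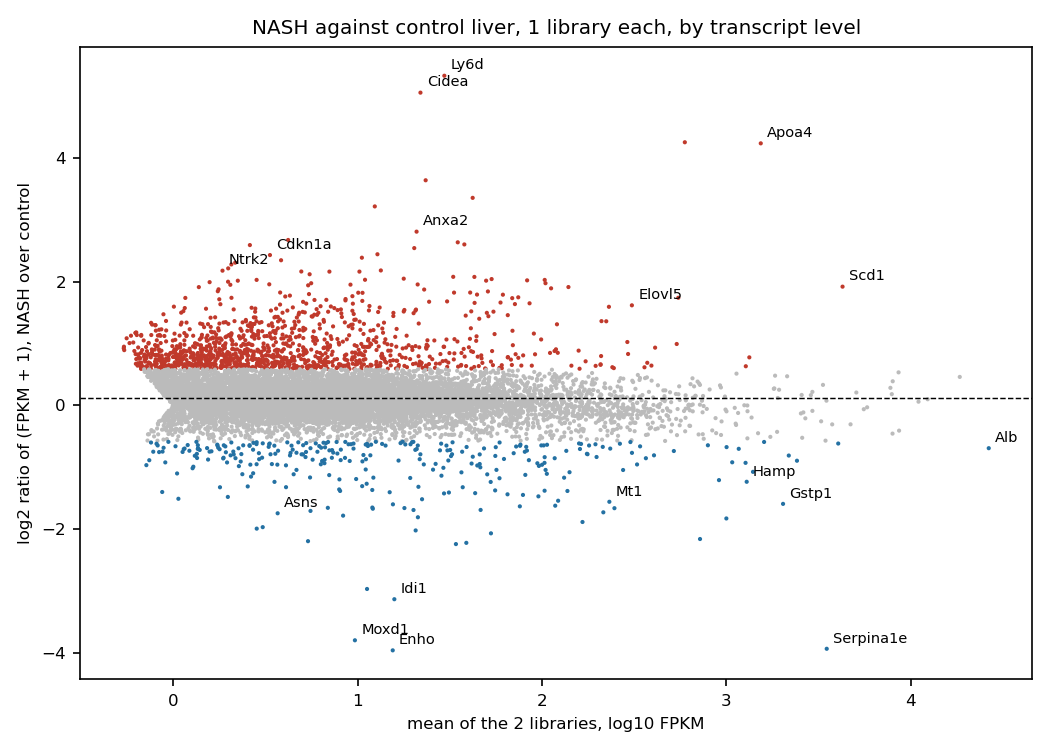
Each point is 1 of 11499 genes, by mean level in the libraries (log10 FPKM) and log2 ratio of (FPKM + 1), NASH over control; red and blue mark the 1208 genes that were higher by 1.5-fold or more and the 296 that were lower, and the dashed line is the median of 0.12. Higher genes are spread over low and middle levels, whereas lower genes make up a growing share towards the most abundant transcripts.

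The direction depended on how abundant a transcript was. Grouped by the larger of the 2 FPKM values, 14.5% of genes under 2 FPKM were higher and 1.48% lower; between 5 and 20 FPKM the shares were 8.88% and 1.97%, between 100 and 1000 FPKM 6.16% and 7.51%, and among the 74 genes of 1000 FPKM or more 6.76% and 21.6%. Thus 16 of these 74, the hepatocyte's bulk products, were lower and 5 higher. Shorter genes were past the threshold more often: of the 2876 shortest genes 14.5% were higher and 4.21% lower, of the 2875 longest 6.05% and 1.46%. Pseudogenes (223) had a median of −0.11, and 30 genes typed in the table as antigen receptor segments (immunoglobulin, with some of the T cell receptor) a median of 0.89 with 18 higher and 3 lower. Very short segments reach 1 FPKM on few fragments: Ighd2-7 did so in NASH on 1 fragment, and Igkj3 and Igkj4 on 2 each, against 0 in control. Such members passed the filter only through NASH, so no conclusion is drawn from this median and count.

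In FPKM, the largest losses in NASH were plasma proteins and the largest gains lipid and lipoprotein genes. Of all fragments 12.9% would have to move between genes to turn one library's shares into the other's, and the 15 genes that gave up most fragments held 47.4% of the loss. Among the 15 largest losses in FPKM, albumin (Alb) stood at 20265 against 32685 FPKM, the alpha-1-antitrypsin gene Serpina1e at 431 against 6571.5 FPKM, apolipoprotein A-I (Apoa1) at 7434 against 9851 FPKM, and fetuin-A (Ahsg) at 2779 against 4119 FPKM. The iron hormone hepcidin (Hamp) stood at 769.7 against 1808.5 FPKM, 2.35-fold lower (2.30 to 2.40). The 15 largest gains included the stearoyl-CoA desaturase Scd1 at 6747 against 1786 FPKM, apolipoprotein A-IV (Apoa4) at 2919 against 155 FPKM, and the fatty acid binding protein Fabp1 at 8516 against 6992 FPKM. Apoc2, the cofactor that lipoprotein lipase needs, stood at 845 against 253 FPKM, 3.34-fold higher (3.27 to 3.42). Serpina1 and major urinary protein (Mup) genes are near-identical copies, so their split among relatives is uncertain: Mup20 stood at 10157 against 7015 FPKM and Mup3 at 6719 against 9205 FPKM.

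The tissue label was checked against its defining genes. Of 28 hepatocyte genes, 28 were at 1 FPKM or more, and together they held 10.2% of NASH and 14.5% of control fragments. Of 11 exocrine pancreas and 7 mesothelium genes, none reached 1 FPKM in either library. Hepatocyte genes were lower or near-level: 9 of 28 were lower, none higher, with a median of −0.36 (−0.53 after TMM scaling). The fibrinogen chains Fga and Fgg stood at 876 against 1666 FPKM and 1585 against 2776 FPKM, the inter-alpha-trypsin inhibitor chain Itih2 at 179 against 290.4 FPKM and tyrosine aminotransferase (Tat) at 264 against 417 FPKM. Within 1.5-fold lay 19 members, such as the asialoglycoprotein receptor chain Asgr1 (419 against 383 FPKM). Only 2 of the 28 lay above the all-gene median of 0.12, so most of the list lay below it.

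Genes of the 2 ends of the lobule lay apart. Of 18 periportal hepatocyte genes 8 were lower and none higher (median −0.47); of 20 pericentral genes 6 were higher and none lower (median 0.44). After TMM scaling the pericentral median was 0.27, with 4 genes higher and 1 lower. The hepatocyte list, which shares Cps1 with the periportal list, was lower as well, with a median of −0.36. After TMM scaling the hepatocyte and periportal medians were −0.53 and −0.65, so much of the periportal difference was shared with hepatocyte genes at large. Etnppl, a phospholyase that degrades phosphoethanolamine, stood at 9.01 FPKM in NASH and 31.2 FPKM in control, 3.47-fold lower (3.25 to 3.70). The urea cycle enzymes Cps1, Asl, Ass1 and Arg1 stood at 261 against 471 FPKM, 129 against 224 FPKM, 1256 against 1714 FPKM and 626 against 864 FPKM. Glutaminase 2 (Gls2), which feeds ammonia to that cycle, was 1.79-fold lower (1.75 to 1.84) at 74.1 against 133 FPKM, and the histidine ammonia-lyase Hal was 1.61-fold lower (1.57 to 1.66) at 29.9 against 48.2 FPKM. On the pericentral side, the dicarboxylate carrier Slc13a3 stood at 13.8 against 4.997 FPKM, 2.77-fold higher (2.56 to 2.99), and the ammonium channel Rhbg at 8.06 against 3.99 FPKM, 2.02-fold higher (1.79 to 2.28). The Wnt feedback gene Axin2 was 1.95-fold higher (1.71 to 2.23) at 2.97 against 1.52 FPKM, and the secreted factor Lect2 1.88-fold higher (1.81 to 1.96) at 156 against 82.6 FPKM. The separation was not complete: the pericentral P450 genes Cyp2e1 and Cyp1a2 stood at 3583 against 3397 FPKM and 142 against 208 FPKM, and the periportal dehydrogenase gene Aldh1b1 at 32.9 against 21.6 FPKM.

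**Figure D2:**
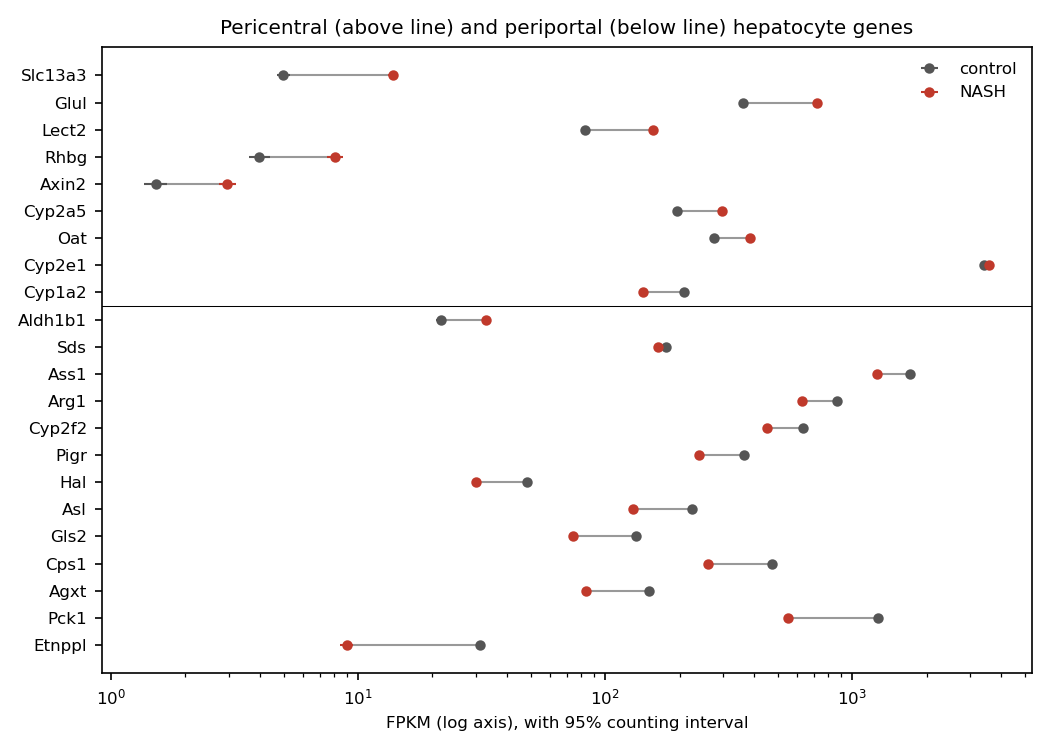
FPKM on a log axis in control (grey) and NASH (red) for pericentral genes above the line and periportal genes below it; bars are 95% counting intervals, mostly smaller than the points. NASH lies to the right for 8 of the 9 pericentral genes drawn, Cyp1a2 being the exception, and to the left for 12 of the 13 periportal genes drawn, Aldh1b1 being the exception. The genes drawn were chosen from the lists and do not stand for them. In the full lists, 14 of 20 pericentral and 2 of 18 periportal genes lay above the all-gene median of 0.12.

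Endothelial genes moved least among the liver cell types with at least 10 genes compared. None of 14 sinusoidal endothelium genes passed 1.5-fold in either direction, and their median of 0.17 was 0.01 after TMM scaling; the scavenger receptor Stab2 stood at 5.86 against 4.29 FPKM and the lectin Clec4g at 35.2 against 32.2 FPKM. For endothelium of larger vessels 2 of 16 genes were higher, with a median of 0.38: Plvap, the diaphragm protein of fenestrae and caveolae, stood at 38.9 against 19.7 FPKM, 1.98-fold higher (1.87 to 2.08), and von Willebrand factor (Vwf) at 1.05 against 0.326 FPKM.

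Fibrogenic cells had a graded pattern. Of 14 quiescent stellate cell genes 4 were higher and 1 lower (median 0.46), or 2 and 1 after TMM scaling. The pericyte regulator Rgs5 stood at 13.1 against 6.19 FPKM, the collectin Colec11 at 36.3 against 19.99 FPKM, and the retinol esterifying enzyme Lrat at 5.43 against 2.90 FPKM. Activated stellate cell genes had 13 of 17 higher, none lower and a median of 0.81, with 3 more of the 20 listed below 1 FPKM in both libraries. The collagenase inhibitor Timp1 stood at 2.75 against 0.270 FPKM, 10.2-fold higher (5.72 to 19.7). Lumican (Lum), a small proteoglycan that spaces collagen fibrils, was 3.65-fold higher (3.17 to 4.23) at 8.13 against 2.23 FPKM, and vimentin (Vim) 2.07-fold higher (1.92 to 2.22) at 20.6 against 9.97 FPKM. The contractile genes Acta2, Tagln and Myl9 stood at 2.57 against 1.16 FPKM, 8.40 against 5.83 FPKM and 3.72 against 3.40 FPKM. Of these only Acta2 passed 1.5-fold. Portal fibroblast genes had 5 of 6 higher and a median of 0.79, among them the microfibril protein Mfap4 at 1.42 against 0.311 FPKM, 4.57-fold higher (3.04 to 7.06), and the ectonucleotidase Entpd2 at 2.13 against 0.729 FPKM. Mfap4 and Entpd2 passed the filter only through NASH. Of the 10 listed, 4 stayed below 1 FPKM, and without the filter the median was 0.64.

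Each class of matrix genes had higher members and none lower as deposited, and members differed within a class. Of 16 collagen genes at 1 FPKM or more, 8 were higher and none lower (median 0.59). Of the 44 listed, 28 were below 1 FPKM, and without that filter the median was 0.06. The fibril-associated collagen Col14a1 stood at 10.9 against 4.66 FPKM and the microfibrillar chain Col6a3 at 2.30 against 0.868 FPKM, whereas Col18a1, the basement membrane collagen that hepatocytes also make, stood at 142 against 159.8 FPKM. Proteoglycans and their modifiers had 7 of 13 higher and a median of 0.81. Sulf2, a sulfatase that trims heparan sulfate, stood at 8.74 FPKM in NASH and 1.18 FPKM in control, 7.43-fold higher (6.57 to 8.43) (ENSMUSG00000006800, chromosome 2 from 166073089 to 166155663). The glypican Gpc1 was 5.58-fold higher (5.15 to 6.06) at 17.4 against 3.11 FPKM, and biglycan (Bgn) 2.15-fold higher (2.07 to 2.24) at 55.6 against 25.8 FPKM. The syndecans Sdc1, Sdc2 and Sdc4, proteoglycans of the hepatocyte surface, stood at 55.01 against 73.5 FPKM, 38.8 against 51.2 FPKM and 123.1 against 141 FPKM, none of them past 1.5-fold. Among metalloproteinases and their inhibitors 7 of 10 were higher, with a median of 0.77: the collagenase Mmp13 stood at 1.31 against 0.158 FPKM, 8.33-fold higher (5.37 to 13.5), and the gelatinase Mmp2 at 2.24 against 0.549 FPKM, 4.08-fold higher (3.23 to 5.21). Mmp13 and Mmp2 passed the filter only through NASH. Of the 27 listed, 17 stayed below 1 FPKM, and without the filter the median was 0.27. Matrix glycoproteins had 8 of 16 higher (median 0.58), including nidogen (Nid1, 4.25 against 1.39 FPKM) and the mineralisation inhibitor Mgp (2.56 against 0.766 FPKM), but fibronectin (Fn1) stood at 120.0 against 132 FPKM. For crosslinking and folding of collagen the count was 4 of 10, with the collagen chaperone Serpinh1 at 19.5 against 8.79 FPKM and the lysyl oxidase Loxl1 at 1.72 against 0.489 FPKM. In the TGF-beta pathway 7 of 20 were higher and none lower (median 0.20), or 4 and 2 after TMM scaling: the ligand Tgfb1 stood at 9.28 against 4.41 FPKM, the receptor Tgfbr2 at 12.8 against 6.69 FPKM and the matricellular target Ccn1, listed under its older name Cyr61, at 8.18 against 3.60 FPKM, whereas the Smad transducers Smad2, Smad3 and Smad4 stood at 4.35 against 4.39 FPKM, 3.15 against 3.76 FPKM and 7.81 against 8.43 FPKM.

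**Figure D3:**
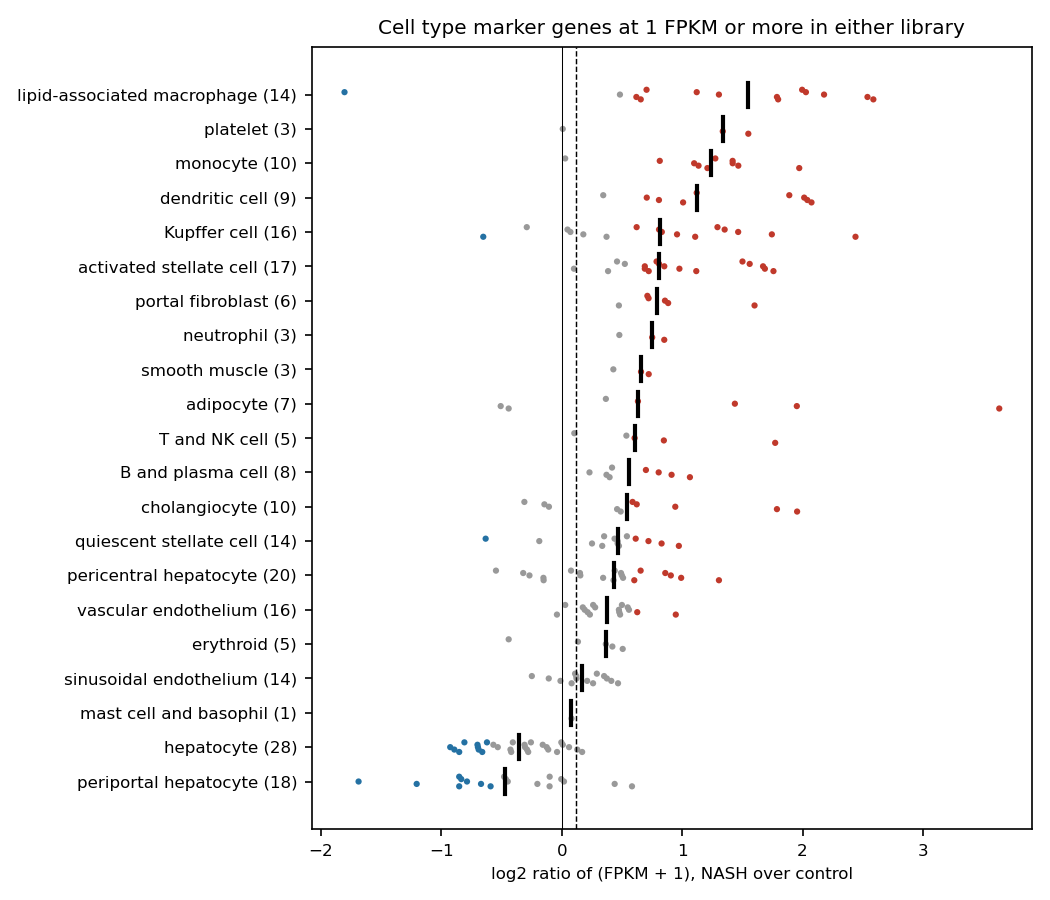
Each point is 1 marker gene at 1 FPKM or more in either library, placed by its log2 ratio of (FPKM + 1), NASH over control; bars are list medians, numbers in brackets the genes compared, and the dashed line the all-gene median of 0.12. The medians run from −0.47 for periportal hepatocyte genes to 1.55 for lipid-associated macrophage genes.

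Monocyte and lipid-associated macrophage genes had the highest medians of the cell lists with at least 10 genes compared, and the Kupffer cell median lay beside that of activated stellate cells. Of 16 Kupffer cell genes 10 were higher and 1 lower (median 0.82). They were not uniform: Cd5l, an apoptosis inhibitor of tissue macrophages, stood at 115 against 33.7 FPKM, Clec4f, a lectin particular to Kupffer cells, at 59.9 against 33.8 FPKM, and the apoptotic cell receptor Timd4 at 3.48 against 1.91 FPKM, while the iron exporter Slc40a1 stood at 37.5 against 35.6 FPKM and the haemoglobin receptor Cd163 at 1.80 against 3.40 FPKM. Monocyte genes had 9 of 10 higher (median 1.24), and 6 of the 16 listed stayed below 1 FPKM. The fractalkine receptor Cx3cr1 stood at 1.68 against 0.157 FPKM, 10.7-fold higher (7.39 to 15.9), lysozyme (Lyz2) at 167 against 41.9 FPKM, and the oxidase subunit Cybb at 7.51 against 2.08 FPKM. Lipid-associated macrophage genes had 12 of 14 higher, 1 lower and a median of 1.55: osteopontin (Spp1), which bile duct cells make as well, stood at 95.8 against 27.04 FPKM, galectin-3 (Lgals3) at 18.2 against 3.72 FPKM, and the actin-capping protein Capg at 9.03 against 1.88 FPKM. The lineage factor Spi1 (PU.1) stood at 9.90 against 3.19 FPKM, 3.11-fold higher (2.75 to 3.52).

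In the list for Fc receptors and phagocytosis 14 of 17 were higher and none lower (median 1.28). The beta-glucan receptor Clec7a stood at 6.49 against 1.12 FPKM, 5.80-fold higher (4.83 to 7.02). The signalling adaptors Tyrobp and Fcer1g stood at 52.6 against 14.2 FPKM and 37.7 against 11.1 FPKM, and the receptor kinase Axl at 12.7 against 4.40 FPKM, whereas its relative Mertk stood at 5.80 against 5.06 FPKM. Of 11 cathepsins 3 were higher (1 after TMM scaling): cathepsin S (Ctss), the protease of antigen-presenting cells, was 3.26-fold higher (3.07 to 3.46) at 65.98 against 20.3 FPKM, and cathepsin L (Ctsl) stood at 260.5 against 254 FPKM. Lysosomal hydrolases and membrane proteins had 4 of 21 higher. Complement had no common direction: of 29 genes 7 were higher, 4 lower and 18 within 1.5-fold (median −0.09). The highest was adipsin (Cfd) at 44.2 against 2.64 FPKM. The macrophage-made C1q chains C1qa, C1qb and C1qc stood at 130.4 against 40.9 FPKM, 108 against 34.2 FPKM and 91.1 against 28.1 FPKM. The liver-made components C8b, C8a and C3 stood at 57.5 against 179 FPKM, 165 against 263 FPKM and 619.9 against 968 FPKM.

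MHC class II, which presents peptides to CD4 T cells, was the highest of the functional lists with at least 5 genes compared, with 7 of 7 higher and a median of 1.97. The chains H2-Ab1 and H2-Eb1 stood at 80.5 against 19.2 FPKM and 70.1 against 15.9 FPKM, the invariant chain Cd74 at 177 against 47.1 FPKM, and the peptide-loading gene H2-DMb1 at 9.53 against 1.68 FPKM, 5.66-fold higher (4.68 to 6.90). The class II transactivator Ciita stayed below 1 FPKM, at 0.648 against 0.192 FPKM. MHC class I and its loading genes had 5 of 19 higher (median 0.35). The immunoproteasome subunit Psmb9 stood at 13.5 against 4.90 FPKM, 2.76-fold higher (2.54 to 3.01), and the peptide transporter Tap1 at 14.7 against 7.14 FPKM. H2-Q1 stood at 18.4 against 2.72 FPKM, 6.77-fold higher (6.11 to 7.53), but H2-Q genes are close copies and the counting could split their fragments. Other dendritic cell genes were scarce: of 18 listed 9 were at 1 FPKM or more, 8 of these higher, 4 of the 9 being class II chains or Cd74, and the type 1 dendritic cell genes Xcr1 and Clec9a stood at 0.172 against 0.0206 FPKM and 0.969 against 0.724 FPKM.

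The CCAAT box was looked for in the 250 bases before the RefSeq start of the class II genes, because these promoters are known to carry a conserved CCAAT element, the Y box. Of the 7 genes 5 matched the promoter table, and 5 of 5 held the letters CCAAT on either strand, as did 37.5% of 27025 genes. The sequences of H2-Aa and H2-Eb1 are shown with a match in capitals, the one farthest from the start where there are several, as in the sets that follow (GRCm38.p6, 5′ to 3′ on the gene's strand; ATTGG is CCAAT on the other strand).
H2-Aa, chr17:34287840-34287899 (-): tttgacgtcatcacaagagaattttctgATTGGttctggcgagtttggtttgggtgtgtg
H2-Eb1, chr17:34305780-34305839 (+): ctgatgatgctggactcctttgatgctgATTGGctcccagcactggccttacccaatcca
Such a match describes letters in a window and does not show that a factor binds there.

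Interferon-stimulated genes were higher at modest size. Of 33 compared, 23 were higher and none lower, 8 of them at least 2-fold, and the median was 0.78 (0.64 after TMM scaling, when 17 were higher). Ifit3, which binds antiviral signalling proteins, stood at 14.3 against 4.88 FPKM, 2.93-fold higher (2.63 to 3.27). The guanylate-binding proteins Gbp2 and Gbp3 stood at 4.03 against 1.06 FPKM and 5.27 against 1.73 FPKM, the RNA sensor Oas1a at 6.15 against 1.93 FPKM, the chemokine Cxcl10 at 5.99 against 2.23 FPKM and the ubiquitin-like modifier Isg15 at 24.4 against 12.3 FPKM. The transcription factors of the pathway divided: Irf7 stood at 31.2 against 16.1 FPKM, but Stat2, Irf1 and Irf9 at 16.2 against 16.2 FPKM, 19.3 against 16.8 FPKM and 11.2 against 9.41 FPKM. The most abundant member, tetherin (Bst2), stood at 460.0 against 285 FPKM. Outside the list, Ubd, a ubiquitin-like protein induced by interferon gamma and tumour necrosis factor, stood at 7.997 FPKM in NASH and 0.413 FPKM in control, 19.3-fold higher (12.46 to 31.7) (ENSMUSG00000035186, chromosome 17 from 37193892 to 37196095). Ifi27l2b, which shares sequence with its neighbour Ifi27l2a, stood at 60.9 against 8.99 FPKM.

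These genes are known to share an interferon-stimulated response element, and its core was searched as a pair of GAAA with any 2 bases between them, on both strands, in the 250 bases before the RefSeq start. Of 24 list members with a promoter in the table, 14 held it (58.3%), against 3.46% of 27025 genes. The holders did not include all the higher members, and Igtp and Stat2, which hold it, stood at 13.9 against 13.1 FPKM and 16.2 against 16.2 FPKM. The 7 windows below are of members that were higher in NASH, on GRCm38.p6, 5′ to 3′ on the gene's strand, with the core in capitals (TTTC takes the place of GAAA where the core lies on the other strand).
Ifit3, chr19:34583348-34583407 (+): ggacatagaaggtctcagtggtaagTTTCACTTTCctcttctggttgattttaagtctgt
Ifit1, chr19:34640760-34640819 (+): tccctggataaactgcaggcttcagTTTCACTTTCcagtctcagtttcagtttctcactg
Gbp2, chr3:142620579-142620638 (+): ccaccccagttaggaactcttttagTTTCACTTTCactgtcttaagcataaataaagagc
Gbp3, chr3:142559974-142560033 (+): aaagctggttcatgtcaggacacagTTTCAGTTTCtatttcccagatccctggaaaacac
Oas1a, chr5:120907526-120907585 (-): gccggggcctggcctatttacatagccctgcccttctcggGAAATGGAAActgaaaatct
Cxcl10, chr5:92349068-92349127 (-): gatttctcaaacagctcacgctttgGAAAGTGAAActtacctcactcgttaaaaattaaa
Isg15, chr4:156200862-156200921 (-): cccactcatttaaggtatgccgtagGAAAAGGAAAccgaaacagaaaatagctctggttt
In these windows the capitalised copies in Ifit3, Ifit1 and Gbp2 have the same letters, TTTCACTTTC, and Cxcl10 holds that sequence's reverse complement, GAAAGTGAAA.

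Chemokines had 11 of 17 higher and none lower (median 0.90), with 20 of 37 listed below 1 FPKM. The T cell attractant Cxcl9 stood at 7.94 against 2.14 FPKM, 3.71-fold higher (3.28 to 4.21), and the myeloid attractant Ccl6 at 17.6 against 5.43 FPKM. Ccl7, which attracts monocytes, stood at 1.25 against 0.0229 FPKM, a ratio of 54.6-fold higher (9.33 to 2200.5) that rests on 1 control fragment. The most abundant chemokine, the stromal factor Cxcl12, stood at 59.5 against 84.5 FPKM. Of interleukin and tumour necrosis factor family genes only 10 of 50 reached 1 FPKM, 5 of them higher as deposited and 1 after either TMM or median-of-ratios scaling; Il1b stood at 4.36 against 2.50 FPKM and Il18 at 11.1 against 11.5 FPKM. Toll-like receptor and inflammasome genes had 10 of 17 higher (median 0.66): the endotoxin co-receptor Cd14 stood at 5.35 against 1.83 FPKM, Tlr2 at 2.54 against 0.839 FPKM, and the inflammatory caspase Casp1 at 2.86 against 1.25 FPKM, whereas the shared adaptor Myd88 stood at 10.4 against 9.44 FPKM and the pore protein Gsdmd at 20.5 against 20.3 FPKM.

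Lymphocyte genes were few. Of 28 T and NK cell genes 5 reached 1 FPKM, 3 of them higher; the receptor constant segments Trac and Trbc2 stood at 1.29 against 0.577 FPKM and 2.29 against 1.16 FPKM, and Cd3e and Cd8a at 0.830 against 0.485 FPKM and 0.353 against 0.0995 FPKM. Summed over the 28, NASH held 1.82 times the control share of fragments (1.68 to 1.98). B and plasma cell genes had 4 of 8 higher, led by the IgA heavy chain gene Igha at 9.32 against 3.93 FPKM, 2.37-fold higher (2.01 to 2.79), with the kappa chain Igkc at 49.5 against 25.8 FPKM and the IgM heavy chain Ighm at 16.4 against 13.8 FPKM. Neutrophil genes had 2 of 3 higher, the alarmin S100a8 at 3.42 against 1.45 FPKM and the cytokine receptor Csf3r at 1.99 against 0.774 FPKM, and the alarmin S100a9 stood at 4.43 against 2.90 FPKM. Of 10 mast cell and basophil genes 1 reached 1 FPKM, Kit at 1.02 against 0.916 FPKM.

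Bile duct and fat cell genes were compared as well, since both cell types can be part of a liver sample. Among cholangiocyte genes 5 of 10 were higher and none lower (median 0.54), or 3 and none after TMM scaling, but the highest, the keratin Krt23 (5.87 against 0.773 FPKM) and Spp1, are also made by other cells, and the duct keratins Krt19 and Krt7 stood at 1.43 against 0.767 FPKM and 0.275 against 0.0895 FPKM. Sox9, a factor of the duct lineage, stood at 1.35 against 1.60 FPKM. Of fat cell genes 4 of 7 at 1 FPKM or more were higher: adipsin (Cfd) at 44.2 against 2.64 FPKM, Fabp4 at 34.3 against 8.11 FPKM, perilipin 4 (Plin4) at 8.70 against 2.58 FPKM and the adipogenic receptor Pparg at 10.5 against 6.43 FPKM. The defining fat cell genes adiponectin (Adipoq), Plin1 and leptin (Lep) were at 0.0659, 0.0333 and 0.0131 FPKM in NASH, on 4, 3 and 2 fragments, and at 0 in control. Haemoglobin and other erythroid genes had none of 5 past 1.5-fold.

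Genes of cell shape and membrane repair were higher across several families. Annexins, proteins that bind membranes when calcium rises, had 4 of 10 higher and none lower, and all 10 lay above the all-gene median. Annexin A2 (Anxa2) stood at 37.3 FPKM in NASH and 4.48 FPKM in control, 8.32-fold higher (7.62 to 9.11) (ENSMUSG00000032231, chromosome 9 from 69453620 to 69491795). Annexin A5 (Anxa5) stood at 167 against 40.2 FPKM, 4.15-fold higher (3.999 to 4.30), and Anxa3 at 5.26 against 1.74 FPKM. The S100 partners of annexins lay on the same side: S100a11 stood at 65.9 against 10.04 FPKM, 6.56-fold higher (5.77 to 7.48) (ENSMUSG00000027907, chromosome 3 from 93520488 to 93526287), and S100a10 at 322 against 125 FPKM, 2.58-fold higher (2.49 to 2.67), in a list with 5 of 9 higher. Actin cytoskeleton genes had 13 of 24 higher and none lower (median 0.74). They included genes that nearly all cells use, beta-actin (Actb, 376 against 211 FPKM) and gamma-actin (Actg1, 76.7 against 33.98 FPKM), the monomer-binding thymosins Tmsb4x (347 against 114 FPKM) and Tmsb10 (61.8 against 20.9 FPKM), and the leukocyte genes Coro1a (10.7 against 3.12 FPKM) and Rac2 (6.26 against 1.58 FPKM). Cofilin (Cfl1) and profilin (Pfn1) stood at 208 against 164 FPKM and 110.3 against 87.9 FPKM. Among tubulins, Tubb2a stood at 64.2 against 17.4 FPKM, 3.68-fold higher (3.47 to 3.90), and Tuba4a at 27.3 against 46.5 FPKM, 1.70-fold lower (1.64 to 1.77), with a list median of 0.06 that turned to −0.10 after TMM scaling. The hepatocyte keratins Krt8 and Krt18 stood at 238 against 153 FPKM and 179 against 145 FPKM.

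Cell cycle genes had 7 of 11 higher and none lower (median 0.67), with 15 of 26 below 1 FPKM. Without the filter the median was 0.39. The replication helicase subunits Mcm2, Mcm3 and Mcm5 stood at 2.34 against 0.903 FPKM, 2.60 against 0.972 FPKM and 1.23 against 0.396 FPKM, and the mitotic activator Cdc20 at 1.28 against 0.255 FPKM. Each of these named members passed the filter only through NASH, so no conclusion is drawn from the count and median of the list. The cyclin-dependent kinase inhibitor Cdkn1a (p21) stood at 6.34 FPKM in NASH and 0.365 FPKM in control, 17.4-fold higher (12.51 to 24.8) (ENSMUSG00000023067, chromosome 17 from 29090979 to 29100722), and cyclin D1 (Ccnd1) at 23.3 against 7.95 FPKM, 2.94-fold higher (2.77 to 3.11). Among cell death genes 4 of 20 were higher and none lower, led by the necroptosis effector Mlkl at 5.01 against 1.85 FPKM, 2.71-fold higher (2.30 to 3.21), while the upstream kinase Ripk1 stood at 3.78 against 4.37 FPKM.

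Stress responses did not move as a block. Of 21 unfolded protein response genes 1 was higher and 2 lower (median −0.18): Creld2 and Sdf2l1, chaperone-linked targets, stood at 30.6 against 62.1 FPKM and 36.8 against 60.2 FPKM, the main endoplasmic reticulum chaperone Hspa5 at 266 against 294 FPKM, and Atf3 at 2.78 against 0.416 FPKM, 6.68-fold higher (4.85 to 9.39). In the ATF4 response 5 of 13 were higher and 1 lower. The stress hormones Gdf15 and Fgf21 stood at 14.6 against 4.97 FPKM and 9.72 against 4.47 FPKM, but asparagine synthetase (Asns), a classic target of the same factor, stood at 1.16 against 6.22 FPKM, 5.36-fold lower (4.37 to 6.61). Among heat shock proteins none of 59 was higher and 1 lower, the co-chaperone Dnajc12 at 2.08 against 9.03 FPKM, 4.33-fold lower (3.79 to 4.97). In the antioxidant list 6 of 21 were higher: the quinone reductase Nqo1 stood at 7.71 against 2.70 FPKM, the extracellular peroxidase Gpx3 at 11.3 against 3.06 FPKM, and the cytosolic peroxidase Gpx1 at 1980.3 against 1822 FPKM. Metallothioneins, which bind zinc and copper, were lower, Mt1 at 117 against 347 FPKM, 2.95-fold lower (2.83 to 3.08), and Mt2 at 64.6 against 128 FPKM.

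**Figure D4:**
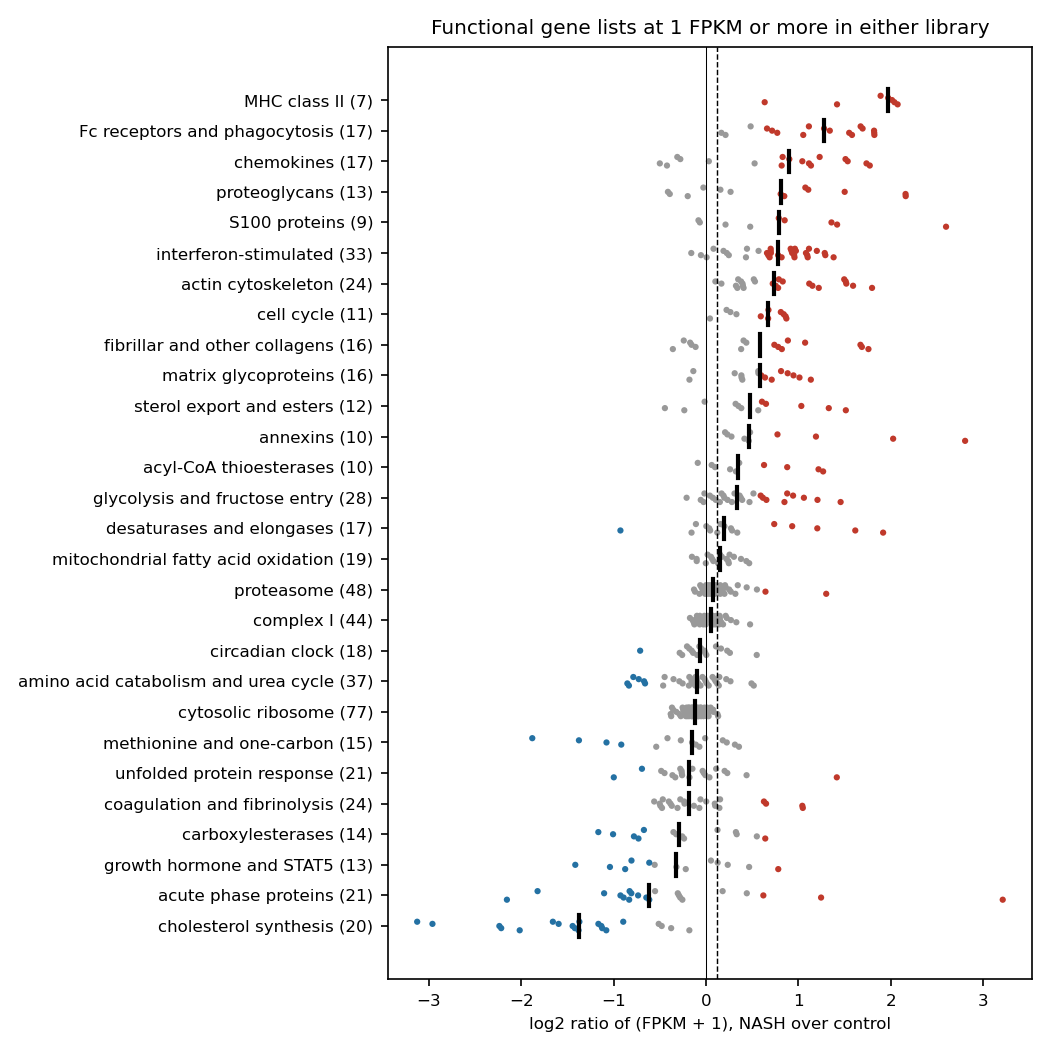
Each point is 1 gene of a functional list at 1 FPKM or more in either library, by its log2 ratio of (FPKM + 1), NASH over control; bars are list medians, numbers in brackets the genes compared, and the dashed line the all-gene median of 0.12. MHC class II lies at the top with a median of 1.97 and cholesterol synthesis at the bottom with −1.38.

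Lipid genes were higher at specific steps. Of 17 lipid droplet proteins 8 were higher and none lower (median 0.55): the droplet-fusing proteins Cidea and Cidec stood at 43.5 against 0.346 FPKM and 77.5 against 6.70 FPKM, the droplet protein Plin4 stood at 8.70 against 2.58 FPKM, the lipase inhibitor G0s2 at 266 against 153 FPKM and Hsd17b11 at 142.5 against 78.7 FPKM, whereas the most abundant member, Plin2, stood at 448 against 339 FPKM. Fatty acid uptake and binding had 5 of 16 higher and 1 lower, with the intestinal-type binding protein Fabp2 at 220.5 against 57.9 FPKM, 3.81-fold higher (3.66 to 3.97), and the acyl-CoA synthetase Acsl1 at 149.9 against 170.2 FPKM. Desaturases and elongases had 5 of 17 higher and 1 lower. Elovl5, which lengthens polyunsaturated fatty acids, stood at 464 FPKM in NASH and 151 FPKM in control, 3.08-fold higher (3.03 to 3.13) (ENSMUSG00000032349, chromosome 9 from 77917364 to 77984519). The desaturase Fads2 stood at 539.5 against 282 FPKM and its partner Fads1 at 213 against 168 FPKM, while Elovl6 stood at 20.2 against 19.5 FPKM and Elovl3, higher in male than in female mouse liver, at 70.9 against 136 FPKM, 1.91-fold lower (1.85 to 1.98). In de novo lipogenesis 6 of 15 were higher with a median of 0.16 that lay just under 0 after TMM scaling: fatty acid synthase (Fasn) stood at 59.5 against 38.97 FPKM and acetyl-CoA carboxylase (Acaca) at 15.9 against 12.3 FPKM, but ATP citrate lyase (Acly) at 42.8 against 51.2 FPKM and the acetate-activating enzyme Acss2 at 36.2 against 54.1 FPKM.

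Fat burning genes were near-level. Of 19 mitochondrial beta-oxidation genes none passed 1.5-fold, with a median of 0.15 that turned to −0.02 after TMM scaling; the gatekeeper Cpt1a stood at 130.5 against 100.1 FPKM and the dehydrogenase Acadm at 191 against 164 FPKM. Peroxisomal oxidation had 2 of 18 higher and 1 lower: the thiolase Acaa1b stood at 1682 against 982 FPKM, 1.71-fold higher (1.70 to 1.73), and Hacl1, the lyase of alpha-oxidation, at 35.8 against 81.95 FPKM, 2.29-fold lower (2.22 to 2.37). Acyl-CoA thioesterases had 4 of 10 higher and none lower, among them Acot11 at 4.19 against 1.16 FPKM and Acot9 at 4.59 against 2.04 FPKM. The phospholipid-making enzymes had 1 of 16 higher, Lpcat2 at 2.21 against 0.700 FPKM, and the phosphatidylethanolamine methyltransferase Pemt stood at 221 against 267 FPKM. Apom, the carrier of sphingosine-1-phosphate on lipoproteins, stood at 75.9 against 199 FPKM, 2.62-fold lower (2.53 to 2.72).

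Sterol genes lay on both sides by function. Of 20 cholesterol synthesis genes 16 were lower, 15 at least 2-fold, and none higher, with a median of −1.38. By step of the pathway, the early enzymes Hmgcs1, Mvk and Pmvk stood at 30.7 against 80.9 FPKM, 4.19 against 8.66 FPKM and 15.6 against 43.3 FPKM, and farnesyl diphosphate synthase (Fdps) at 118 against 376 FPKM. The cyclase Lss stood at 4.05 against 9.998 FPKM and the late enzymes Nsdhl and Dhcr7 at 7.58 against 33.7 FPKM and 17.5 against 39.5 FPKM. The late-step genes Sc5d and Ebp were closer to level, at 144 against 187 FPKM and 96.2 against 135 FPKM. Sterol export and esterification had 5 of 12 higher and none lower, or 3 and 1 after TMM scaling: the exporter Abcg1 stood at 4.19 against 1.07 FPKM, 3.93-fold higher (3.37 to 4.61), the lysosomal lipase Lipa at 88.5 against 59.5 FPKM, and the esterifying enzymes Soat1 and Soat2 at 1.29 against 0.457 FPKM and 20.04 against 23.8 FPKM. In the list for sterol sensing and uptake 2 of 11 were higher and 3 lower. Its feedback proteins diverged, Insig1 at 59.4 against 110.5 FPKM, 1.86-fold lower (1.81 to 1.91), and Insig2 at 92.4 against 46.6 FPKM, 1.98-fold higher (1.92 to 2.04).

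Promoters of this pathway are known to combine a sterol regulatory element with a CCAAT box bound by NF-Y. In the 250 bases before the RefSeq start, 14 of the 15 members with a promoter in the table held CCAAT on either strand (93.3%), against 37.5% of 27025 genes, and 1, Hmgcs1, held the element searched as TCACNCCAC, which 1.23% of all genes held. With nearly all members holding it, the box cannot tell members apart. Shown are Hmgcs1 with its sterol element and 4 of the members with the lowest ratios with their CCAAT box, in capitals (GRCm38.p6, 5′ to 3′ on the gene's strand; ATTGG is CCAAT on the other strand).
Hmgcs1, chr13:119690188-119690247 (+): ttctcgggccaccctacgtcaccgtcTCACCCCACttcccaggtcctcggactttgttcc
Idi1, chr13:8885533-8885592 (+): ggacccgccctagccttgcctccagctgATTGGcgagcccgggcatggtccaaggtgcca
Cyp51, chr5:4104698-4104757 (-): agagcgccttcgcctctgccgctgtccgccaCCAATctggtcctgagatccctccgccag
Msmo1, chr8:64733707-64733766 (-): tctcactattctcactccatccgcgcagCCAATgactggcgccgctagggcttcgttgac
Nsdhl, chrX:72918384-72918443 (+): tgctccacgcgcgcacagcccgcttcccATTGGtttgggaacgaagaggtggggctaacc
In Hmgcs1 the sterol element begins 137 bases before the start and a CCAAT box 237 bases before it, so these do not overlap.

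Of 28 glycolysis and fructose genes 9 were higher and none lower (median 0.34), and 6 were higher after TMM scaling. The liver pyruvate kinase Pklr stood at 152 against 82.2 FPKM and ketohexokinase (Khk), which starts fructose breakdown, at 436 against 284 FPKM. The muscle and leukocyte forms Pkm and Hk3 stood at 16.8 against 6.71 FPKM and 2.83 against 0.837 FPKM. The hepatic glucose transporter Slc2a2 stood at 105 against 93.4 FPKM and the fructose transporter Slc2a5 at 5.67 against 4.14 FPKM. For gluconeogenesis and glycogen 2 of 14 were higher, the branching enzyme Gbe1 (53.1 against 27.2 FPKM) and Ugp2 (214 against 131 FPKM), and 1 lower. After TMM scaling 1 was higher and 2 lower. Glucose-6-phosphatase (G6pc) stood at 67.4 against 98.3 FPKM.

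Amino acid and sulfur metabolism was level or lower. Of 37 genes for amino acid breakdown and urea 6 were lower and none higher (median −0.10), and 4 of 15 methionine and one-carbon genes were lower. Csad, which makes hypotaurine on the way to taurine, stood at 70.3 FPKM in NASH and 262 FPKM in control, 3.72-fold lower (3.63 to 3.82) (ENSMUSG00000023044, chromosome 15 from 102176998 to 102189043). The nicotinamide methyltransferase Nnmt stood at 57.1 against 149.7 FPKM, 2.62-fold lower (2.51 to 2.74), and cystathionine gamma-lyase (Cth) at 90.4 against 192 FPKM, 2.12-fold lower (2.07 to 2.18). Glycine N-methyltransferase (Gnmt), which removes surplus S-adenosylmethionine, was 1.89-fold lower (1.87 to 1.91) at 745 against 1407 FPKM, whereas Mat1a, which makes that compound, stood at 715 against 771 FPKM, and betaine-homocysteine methyltransferase (Bhmt) at 799 against 623 FPKM.

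Genes under growth hormone and sex-specific control were lower more often than higher. Of 13 growth hormone and STAT5 genes 5 were lower and 1 higher (median −0.32). The feedback inhibitors Cish and Socs2, direct STAT5 targets, stood at 2.71 against 6.62 FPKM and 2.86 against 5.75 FPKM, 2.45-fold lower (2.23 to 2.69) and 2.01-fold lower (1.82 to 2.22). The repressor Bcl6 stood at 12.47 against 6.83 FPKM, Igf1 at 56.9 against 71.3 FPKM, and the receptor Ghr at 131 against 127 FPKM. The growth factor receptor Egfr was 2.74-fold lower (2.68 to 2.80) at 23.2 against 63.6 FPKM. Of 18 male-biased genes 10 were lower and none higher, 9 at least 2-fold, among them the steroid dehydrogenase Hsd3b5 at 36.6 against 115 FPKM, 3.15-fold lower (3.02 to 3.28). Of 20 female-biased genes 7 reached 1 FPKM and 4 were higher, including the steroid hydroxylase Cyp17a1 at 14.5 against 4.57 FPKM, 3.17-fold higher (2.84 to 3.54). Their median was 0.63, but 0.08 without the filter. Summed over the 20, NASH held 0.883 times the control share of fragments (0.863 to 0.904), so the female-biased list had no common direction.

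Secreted signals of the liver lay on both sides: of 20 hepatokines 5 were higher and 4 lower as deposited, and 5 higher and 8 lower after either TMM or median-of-ratios scaling. The activin chain Inhbe stood at 66.7 against 24.7 FPKM, 2.70-fold higher (2.59 to 2.83), and its relative Inhbc at 25.97 against 36.5 FPKM. Fgl1, a fibrinogen-like secreted protein, was 2.80-fold lower (2.73 to 2.87) at 50.4 against 141 FPKM, and fetuin-B (Fetub) at 223 against 433 FPKM. Igfbp3 and Igfbp7, binding proteins that non-parenchymal cells make, stood at 13.1 against 4.81 FPKM and 92.3 against 51.6 FPKM. Among acute phase proteins, 11 of 21 were lower and 3 higher (median −0.61): serum amyloid P (Apcs) stood at 67.2 against 145 FPKM, the endotoxin-binding protein Lbp at 30.1 against 54.2 FPKM and the inter-alpha-trypsin inhibitor chain Itih3 at 142 against 254 FPKM, while haptoglobin (Hp) stood at 3353.5 against 4144 FPKM and Saa3, a form that macrophages also make, at 29.4 against 21.4 FPKM. Of 24 coagulation and fibrinolysis genes 4 were higher and none lower as deposited, with a median of −0.18, but 2 were higher and 5 lower after either TMM or median-of-ratios scaling. Those higher as deposited included Vwf, the urokinase Plau (2.40 against 0.649 FPKM) and its receptor Plaur (1.69 against 0.302 FPKM), whereas hepatocyte factors such as prothrombin (F2, 453 against 561 FPKM) and plasminogen (Plg, 593 against 821 FPKM) lay below level.

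Drug and steroid metabolism had no common direction. Among cytochrome P450 family 2 genes, whose close copies share reads, 6 of 30 were higher and 7 lower (median −0.16), or 5 and 11 after TMM scaling: Cyp2a22 stood at 3.30 against 0.198 FPKM and Cyp2c54 at 50.8 against 112 FPKM. None of 4 family 3 genes passed 1.5-fold, and Cyp3a11 stood at 1006 against 1252 FPKM. Carboxylesterases had 5 of 14 lower and 1 higher, with Ces1c at 773 against 1232.5 FPKM and Ces3b at 129 against 222 FPKM. UDP-glucuronosyltransferases had 1 of 15 lower and none higher. The oestrogen sulfotransferase Sult1e1 stood at 2.11 against 0.102 FPKM, 20.7-fold higher (9.77 to 52.6), and the prostaglandin transporter Slco2a1 at 3.22 against 13.5 FPKM, 4.18-fold lower (3.92 to 4.47).

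Housekeeping groups were close to level. Of 77 cytosolic ribosomal proteins 2 lay above the all-gene median and none passed 1.5-fold, with a median of −0.12 (−0.29 after TMM scaling). None of 44 complex I genes and none of 37 genes of complexes III to V passed it either, with medians of 0.05 and 0.02 that turned to −0.12 and −0.16 after TMM scaling. The proteasome had 2 of 48 higher, Psmb9 and Psmd8 (94.5 against 60.1 FPKM), and mitochondrial ribosomal proteins 2 of 76; both medians, 0.08 and 0.11, turned negative after TMM and median-of-ratios scaling. Of 18 clock genes 1 was lower, Nfil3 at 5.91 against 10.3 FPKM, and none higher; the strongly rhythmic output gene Dbp stood at 125 against 111 FPKM and the repressor Nr1d1 at 32.99 against 34.2 FPKM. Liver transcription factors had 2 of 22 higher and 1 lower: Hnf4a stood at 92.6 against 134 FPKM and Foxa3, the 1 lower, at 23.8 against 39.8 FPKM. Of 35 nuclear receptors 3 were higher and none lower, among them the bile acid-induced repressor Nr0b2 at 32.6 against 15.2 FPKM, 2.14-fold higher (1.98 to 2.32).

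Gene families were also ranked by symbol stem alone, without chosen lists. Of 181 families with at least 8 genes compared, 9 had a median of 0.5 or more and 23 a median under 0. The highest were the chemokine stems Ccl (0.98) and Cxcl (0.87), the interferon-induced stems Ifi (0.93) and Gbp (0.92), C-type lectins (Clec, 0.84), kappa variable segments (Igkv, 0.81), CD antigens (0.75), histones (Hist, 0.63) and Mcm genes (0.63). The lowest were Serpina (−0.54), carboxylesterases (Ces, −0.29), cytochromes P450 (Cyp, −0.27), Klf factors (−0.19) and large-subunit ribosomal genes (Rpl, −0.15). Some Igkv segments, such as Igkv12-44 (38 fragments against 0), and the genes Mcm2, Mcm3 and Mcm5 reached 1 FPKM in NASH alone. Families are not independent of the lists above, since they share genes with them.

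**Figure D5:**
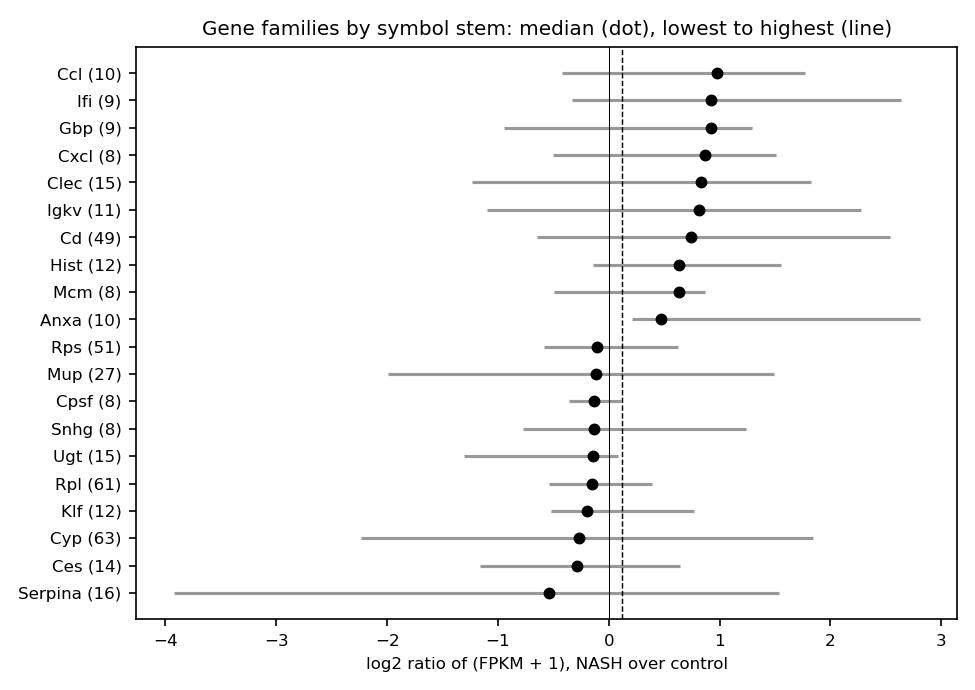
Median (dot) and range (line) of log2 ratios of (FPKM + 1), NASH over control, for the 10 highest and 10 lowest of 181 gene families by symbol stem, with the number of genes in brackets and the all-gene median of 0.12 dashed. Medians run from 0.98 for Ccl to −0.54 for Serpina, and ranges cross 0 in most families.

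Some transcripts were near absent in control and present in NASH. Under 0.1 FPKM in control and at 1 FPKM or more in NASH lay 30 genes; the reverse held for 2. The neurotrophin receptor kinase Ntrk2 stood at 3.67 FPKM in NASH and 0.0343 FPKM in control, 107-fold higher (65.6 to 188) (ENSMUSG00000055254, chromosome 13 from 58806596 to 59133970). The ephrin receptor Ephb2 was 84.3-fold higher (55.5 to 135) at 3.12 against 0.0370 FPKM, and Themis, a T cell signalling protein, 63.9-fold higher (39.7 to 110.2) at 3.92 against 0.0613 FPKM, a level above that of the T cell receptor chain segment Trac. Sprr1a, a cornified envelope protein, stood at 4.28 against 0.0682 FPKM, 62.7-fold higher (21.1 to 307) on 3 control fragments, and the imprinted noncoding RNA H19, abundant in fetal liver, at 1.76 against 0.0721 FPKM, 24.4-fold higher (12.6 to 54.1). The insulin-responsive glucose transporter Slc2a4 was 12.52-fold higher (7.24 to 23.5) at 1.01 against 0.0803 FPKM. Of the 30, 10 were immunoglobulin or T cell receptor segments, several on fewer than 4 fragments. Gpr110, an adhesion receptor, went the other way at 0.0773 against 2.06 FPKM, 26.6-fold lower (15.7 to 49.1). Positions are those of the deposited table, and the sources used here do not give its genome build.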

How the data were processed

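Per the labels' protocols, liver mRNA was captured on oligo(dT) and primed with random hexamers. TopHat2 and HTSeq were used, per the submitters' processing notes; the sources used here do not give versions, strand mode or genome build, so overlapping and antisense genes cannot be told apart. The authors deposited FPKM per gene. The product of FPKM and gene length was a whole number of fragments in 100% of values (within 0.01 fragment), which gave fragment counts and the exact conditional binomial (Clopper-Pearson) intervals.

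Genes reaching 1 FPKM in NASH or control were compared on log2(FPKM + 1). No count model or test was run, with 1 library per group. Members and the 113 gene lists (2620 entries, 5 not found, 14 matched by gene ID under an older symbol) were chosen with earlier results of these data known. Named genes are the 40 highest and 40 lowest ratios at 5 FPKM or more, the 15 largest FPKM gains and losses, the 5 largest ratios and the most abundant member per list, and the extremes of each family; the text names those of known role, and others beside them, chosen after their values were seen, for contrast within a list. Promoters are RefSeq windows on GRCm38.p6, without those of chromosome 18. Alternatives were other pseudocounts, filters, scalings and gene sets. Steps were tested on simulated data. Python 3.11.15, numpy 2.4.6, pandas 2.3.3, SciPy 1.17.1 and matplotlib 3.10.9 were used. Some genes of the lists are counted but not reported here by name.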

Additional observations from a re-analysis of the deposited data

How the results depend on the processing

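The sign of some list medians between −0.04 and 0.16 turned under at least 1 alternative, and the all-gene median went from 0.12 to −0.03 after TMM scaling. The balance of higher and lower members turned after TMM scaling in several lists. Among them were the lists for coagulation, hepatokines, gluconeogenesis and glycogen, bile acids, glutathione S-transferases, organic ion carriers and immediate early factors. Of the counts of genes past 1.5-fold, those higher fell from 1208 to 367 with a pseudocount of 5 FPKM and to 551 when genes had to reach 5 FPKM, and those lower went from 296 to 159 with a pseudocount of 5 FPKM and to 469 after TMM scaling. At 2-fold, the 383 higher became 872 with a pseudocount of 0.1 FPKM, 101 with 5 FPKM and 228 when genes had to reach 5 FPKM, and the 89 lower became 153 with a pseudocount of 0.1 FPKM and 54 with 5 FPKM. With a pseudocount of 5 FPKM 65.2% of genes past 2-fold were higher, against 81.1% as reported. Families with a median of 0.5 or more were 9 of 181 with at least 8 genes and 3 of 98 with at least 12. List medians stayed within the interval set by the spread of the list's members in 911 comparisons of a list with an alternative and moved in 75, whereas ratios of the genes with the largest differences stayed within their counting range in 155 and moved in 261, and the all-gene median moved in 8 alternatives and stayed in 1. For the smallest lists that interval is the whole range of the members, so a median could hardly leave it. The platelet median, 1.34 with the filter and 0.08 without, counted as stayed. The tally of list medians therefore does not show that they are stable. Intervals cover counting error only, since PCR copies are not independent molecules, and the spread between mice was not measured. No paired analysis was possible because each group has 1 library.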
